A study of Mus musculus with 42 samples.

Results

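The livers compared here came from obese ChemR23 knockout mice treated with resolvin E1 (KO obese+RvE1) and from lean ChemR23 knockout mice given vehicle (KO lean). The members are 14 of the 42 RNA-seq libraries of the series, 7 mice in each group, taken by the genotype, diet and treatment written in each sample's label. All mice were male, on a C57BL/6J background and homozygous for a CRISPR/Cas9 deletion in Cmklr1, the gene of ChemR23, so the lean controls carried the deletion too. From 6 weeks of age and for 15 weeks the lean group ate a diet with 10% of its calories from fat and the obese group a diet with 60%, mostly lard. The KO obese+RvE1 mice then received 300 ng RvE1 into the peritoneum on each of 4 days and the KO lean mice received vehicle (ethanol in saline), and whole liver was taken from fasted mice on day 5. Diet and RvE1 both differed between the groups, so their parts cannot be told apart in this comparison. Obese knockout mice given vehicle (KO obese, n = 7) are therefore set beside it, and wildtype littermates (WT lean and WT obese+RvE1, n = 7 each) give the same comparison with the receptor present.

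RvE1 is a lipid mediator that the body makes from the omega-3 fatty acid eicosapentaenoic acid, and it acts in the resolution of inflammation. ChemR23 is a G protein-coupled receptor for RvE1 and for the adipokine chemerin, and macrophages and other innate immune cells carry it. In the liver of an obese mouse, triglyceride accumulates in hepatocytes, and the enzymes that make, store, burn and export fatty acids change together with xenobiotic and inflammatory genes. The comparison asks which of the changes that come with a high-fat diet in receptor-deficient liver were also present after RvE1.

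The 14 libraries held between 16928658 and 40603191 reads on the 14433 genes that could be joined, with medians of 25427927 in KO lean and 22954089 in KO obese+RvE1 liver. All levels below are normalized read counts, the reads of a gene divided by the size factor of the library, and 14110 genes with a mean of at least 5 were tested. Residual Cmklr1 reads were low in both knockout groups, at 10.6 to 24.5 in KO lean and 6.58 to 15.8 in KO obese+RvE1 mice against 44.0 to 124 in WT lean mice, so the label of every knockout library held, and Cmklr1 did not pass the test between the groups (Log2FC = -0.15 ± 0.25 SE, adjusted p = 0.749). The summed level of 9 hepatocyte markers overlapped between the groups, at 1340000 to 1850000 in KO lean and 1250000 to 1680000 in KO obese+RvE1 liver. KO obese+RvE1 replicates 1 and 7 stood apart, at 74.51 and 71.11 on the first principal component where the other 12 libraries lay between -43.46 and 18.29. In these 2 livers the male-biased steroid dehydrogenase Hsd3b5 was at 7.57 and 1.22 against 2170 to 9500 in the other 5, the organic anion transporter Slco1a1 at 442 and 326 against 10000 to 23600, the collagen gene Col1a1 at 302 and 512 against 18.7 to 94.8, and the macrophage gene Gpnmb at 51.1 and 74.6 against 1.39 to 15.1. These 4 genes were picked after the values were seen. KO obese replicate 1, a vehicle-treated liver, had similar values for Hsd3b5 (7.59), Slco1a1 (991), Col1a1 (353) and Gpnmb (211). For Igf1, also picked after the values were seen, it was at 21300, inside the range of the other 5 RvE1-treated mice (20200 to 34000), where replicates 1 and 7 were at 11500 and 12900. KO obese replicates 2 and 3 had Hsd3b5 at 454 and 118 against 1650 to 5890 in replicates 4 to 7. Their Slco1a1 was at 6810 and 4120 (11800 to 37800) and their Gpnmb at 64.6 and 16.3 (1.3 to 13.1). Values without replicates 1 and 7 leave out RvE1-treated mice only, and the vehicle group was kept whole. On the second component KO lean replicates 3 to 5, which share an identifier number in their labels, lay at -40.9 to -23.93 and the other lean mice at 16.35 to 27.78, and leaving these 3 mice out gave 780 called genes against the 639 reported below. Calls that were lost without replicates 1 and 7 are named below with each group of genes.

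**Figure D1:**
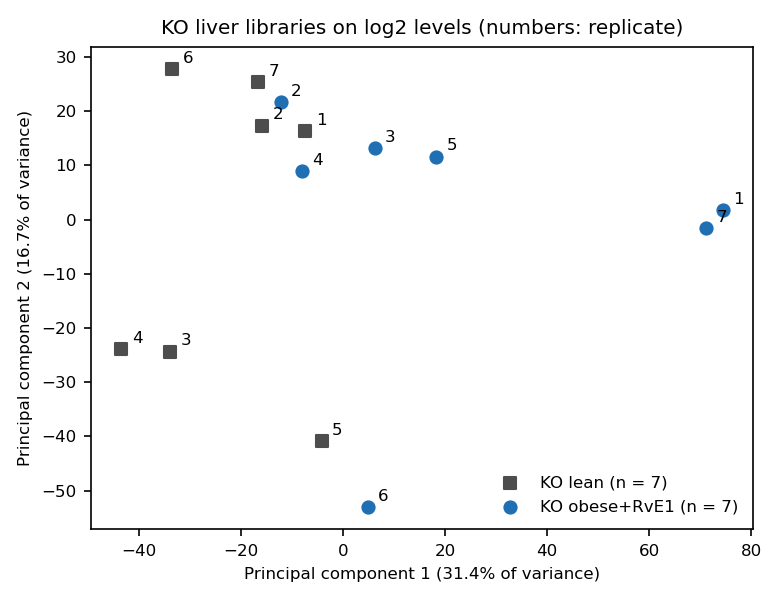
First and second principal components of log2 normalized read counts for the 7 KO lean (squares) and 7 KO obese+RvE1 (circles) libraries, numbered by replicate, with the share of variance on each axis (31.4% and 16.7%). KO obese+RvE1 replicates 1 and 7 sit alone on the right, above 70 on the first component, and the other 12 libraries lie below 20.

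KO obese+RvE1 liver had 324 upregulated and 315 downregulated genes against KO lean liver. These 639 genes were 4.53% of those tested (2.30% upregulated and 2.23% downregulated), with a gene counted as up- or downregulated at a Benjamini-Hochberg adjusted p below 0.1 and a fold change above 1.5. The median Log2FC was 0.90 among the upregulated and -0.91 among the downregulated genes, and 23 and 19 of them changed by more than 2 on the log2 scale. For 149 genes (1.06% of those tested) the values of the 2 groups did not overlap, 77 with every KO obese+RvE1 mouse above every KO lean mouse (0.546%) and 72 with every one below (0.510%). Without KO obese+RvE1 replicates 1 and 7 the total fell to 220 genes, and 102 of the 324 upregulated and 91 of the 315 downregulated genes were still called. On leaving out each mouse in turn the total was lower by more than 1.5 times without KO obese+RvE1 replicate 1 (297), 5 (348) or 7 (337) or KO lean replicate 6 (346), and higher by as much without KO obese+RvE1 replicate 2 (1025) or 6 (1049). Of 111 up- or downregulated genes checked one by one, 63 kept their call on leaving out each mouse and 49 without replicates 1 and 7, and none changed direction. Where a call named below was lost without some mouse, KO obese+RvE1 replicate 1 was most often that mouse (46 genes), followed by replicate 7 (42), KO lean replicate 6 (40) and KO obese+RvE1 replicate 5 (39). Scaling every library to an equal read total moved the median Log2FC of all genes from -0.01 to 0.21 and gave 1015 upregulated and 183 downregulated genes, so Log2FC values near 0 depend on the scaling. The Log2FC values are on the log2(normalized read count + 1) scale, which understates the change of weakly expressed genes, and are followed by their standard error.

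Cyp2b genes, which encode cytochrome P450 enzymes that oxidise drugs, steroids and fatty acids, held the largest upregulation. Among them, Cyp2b10 is a classical target of the nuclear receptor CAR. Cyp2b9 lies on chromosome 7 of GRCm38 (mm10) at 26173411 to 26210661 on the plus strand, and its neighbours Cyp2b13 (26061497 to 26096197) and Cyp2b10 (25897620 to 25926624) lie on the same strand of that chromosome. The 250 bases upstream of each gene's start (RefSeq, GRCm38.p6, plus strand, 5′ to 3′) are shown because these genes rose together and their transcripts are alike enough to share reads. For Cyp2b9 (chr7:26173159-26173408) and Cyp2b13 (chr7:26061245-26061494) the capitals mark the only 2 bases at which they differ, T48C and C104T from Cyp2b9 to Cyp2b13, counted from 1 at the 5′ end, and for Cyp2b10 (chr7:25897408-25897657) they mark the longest stretch, 12 bases, identical to Cyp2b9 in an alignment of both. The gene coordinates above are those of GENCODE, whose start of Cyp2b10 lies inside the stretch shown, upstream of the RefSeq start.
Cyp2b9: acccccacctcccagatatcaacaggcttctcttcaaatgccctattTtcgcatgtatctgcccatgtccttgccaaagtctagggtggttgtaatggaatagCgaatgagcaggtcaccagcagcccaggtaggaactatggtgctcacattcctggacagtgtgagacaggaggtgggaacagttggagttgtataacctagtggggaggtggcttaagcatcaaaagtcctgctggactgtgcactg
Cyp2b13: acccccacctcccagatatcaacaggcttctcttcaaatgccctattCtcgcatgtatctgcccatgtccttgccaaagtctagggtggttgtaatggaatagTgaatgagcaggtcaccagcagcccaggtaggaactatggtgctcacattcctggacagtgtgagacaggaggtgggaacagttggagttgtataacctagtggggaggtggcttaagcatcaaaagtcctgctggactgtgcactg
Cyp2b10: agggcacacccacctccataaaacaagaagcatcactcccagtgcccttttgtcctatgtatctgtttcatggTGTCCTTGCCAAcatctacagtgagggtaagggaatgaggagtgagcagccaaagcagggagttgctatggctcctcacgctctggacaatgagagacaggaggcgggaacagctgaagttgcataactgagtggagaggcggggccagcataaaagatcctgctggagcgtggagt
Cyp2b9 and Cyp2b13 were identical at 248 of 250 positions (99.2%), and Cyp2b9 and Cyp2b10 at 187 of 262 aligned positions (71.4%).

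Cyp2b9 was nearly silent in lean liver and abundant in every treated obese liver. Its normalized read count was 0 at the lowest, 2.34 at the median and 11.5 at the highest in KO lean mice, and 305, 930 and 7340 in KO obese+RvE1 mice (Log2FC = 8.71 ± 0.69, adjusted p = 4.5e-06). The groups did not overlap, and the 2 highest values were those of replicates 1 and 7 (7280 and 7340). Without them the Log2FC was 7.72. Cyp2b10 ranged from 0 to 26.2 with a median of 2.84 in KO lean mice and from 52.1 to 325 with a median of 100 in KO obese+RvE1 mice (Log2FC = 4.25 ± 0.62, adjusted p = 0.00291). For Cyp2b10, replicates 1 and 7 lay inside the range of the other 5 mice. Cyp2b13 had 1 read in total over the 7 KO lean libraries, 6 of them at 0, and 856 reads over the 7 KO obese+RvE1 libraries, in which it was at 4.52 to 11.1 in 5 mice and at 260 and 248 in replicates 1 and 7. No fold is given for Cyp2b13, and 10.8% of the 50-base windows of the longest Cyp2b9 transcript also occur in Cyp2b13, so a part of the reads of either may belong to the other. Without RvE1, KO obese mice had Cyp2b9 at 27.6 to 4300 (median 1440, Log2FC = 7.64 against the same lean mice) and Cyp2b10 at 29.5 to 319 (Log2FC = 4.22). The RvE1-treated and vehicle-treated obese groups overlapped for both genes, and the 95% interval of their difference in log2 ran from -1.22 to 3.38 for Cyp2b9 and from -0.93 to 1.00 for Cyp2b10. In wildtype mice the Log2FC between RvE1-treated obese and lean liver was 9.23 for Cyp2b9 and 4.73 for Cyp2b10.

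Of 32 hepatic cytochrome P450 genes tested, 9 were upregulated and 1 was downregulated, and the median of the list was 0.12 where that of all genes was -0.01. Beside the Cyp2b genes these were Cyp2a22 (Log2FC = 2.34 ± 0.47), Cyp2a4 (2.20 ± 0.61), Cyp2c38 (1.52 ± 0.43), Cyp2c39 (1.44 ± 0.37), Cyp2c37 (1.41 ± 0.27) and Cyp2c50 (0.89 ± 0.24), and Cyp2c55 was the member that fell (-1.10 ± 0.31). The Cyp2c enzymes convert arachidonic and linoleic acid to epoxides and hydroxylate many drugs. Cyp2c37 had a median of 2560 in KO lean and 7920 in KO obese+RvE1 liver, with 5460 in the highest lean mouse and 4400 in the lowest treated mouse, so the groups overlapped. The number of upregulated members was 10 in vehicle-treated obese KO liver and 9 of 30 in RvE1-treated WT liver. It was 6 without KO obese+RvE1 replicates 1 and 7, and 5 on leaving out either KO obese+RvE1 replicate 5 or KO lean replicate 6. The calls of Cyp2a4, Cyp2c38, Cyp2c39, Cyp2c50 and Cyp2c55 were each lost without 1 or more of these or other mice, and without replicates 1 and 7 together those of Cyp2a4, Cyp2c38, Cyp2c39 and Cyp2c55 were lost (adjusted p = 0.26, 0.26, 0.214 and 0.135) and Cyp2b13 fell below the minimum level for a test. Of the longest Cyp2a4, Cyp2c37 and Cyp2a22 transcripts, 38.0%, 30.1% and 20.5% of 50-base windows occur in another gene as well, so their levels are uncertain in part.

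Lepr, the leptin receptor gene (chromosome 4, 101717404 to 101815352), had the smallest p of all genes and was downregulated. It ranged from 1520 to 3780 with a median of 2240 in KO lean mice and from 93.7 to 227 with a median of 178 in KO obese+RvE1 mice (Log2FC = -3.91 ± 0.22, adjusted p = 6.09e-08). Every treated mouse lay far below every lean mouse, and without replicates 1 and 7 the Log2FC was -3.81. Among vehicle-treated KO obese mice Lepr was more spread, from 92.8 to 1440 with a median of 180 (Log2FC = -3.01, adjusted p = 0.00326), and the interval of RvE1 minus vehicle, -1.97 to 0.18, included 0. Fabp5, a carrier of fatty acids inside cells (chromosome 3, 10012548 to 10016607), fell from a median of 426 (176 to 812) to 22.2 (6.94 to 85.9), with no overlap (Log2FC = -3.79 ± 0.48, adjusted p = 0.00115).

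The other downregulated genes with the smallest p are known for varied functions. Elovl2, which elongates very long polyunsaturated fatty acids, went from 36300 to 49100 in KO lean to 12200 to 25300 in KO obese+RvE1 mice (Log2FC = -1.27 ± 0.16, adjusted p = 0.000941). Acmsd, which turns a tryptophan breakdown product away from the synthesis of NAD, went from 779 to 998 to 147 to 447 (Log2FC = -1.58 ± 0.21, adjusted p = 0.00177). Neither gene had overlapping groups. Tff3, a secreted trefoil factor, had Log2FC = -3.17 ± 0.42, Adcy1, an adenylyl cyclase, -3.05 ± 0.45, Cib3, a calcium-binding protein, -2.90 ± 0.40, Dntt, a template-independent DNA polymerase, -1.39 ± 0.16, and Fam46a, a poly(A) polymerase, -0.84 ± 0.12. The gene 2010003K11Rik also fell (-1.74 ± 0.23). Of these 10 genes, the calls of all held under each alternative setting and on leaving out each mouse. The largest falls in Log2FC belonged to weakly expressed genes. Moxd1, a copper-dependent monooxygenase, was at 5.03 to 963 in KO lean mice and at 0 in 5 of 7 KO obese+RvE1 mice (highest 19.2, Log2FC = -5.72 ± 1.05, adjusted p = 0.011), and Chrna4, a nicotinic acetylcholine receptor subunit, went from a median of 107 to 2.63 (-4.16 ± 0.77, adjusted p = 0.011), with 1 treated mouse at 57.2, above the lowest lean mouse at 45.1.

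The upregulated genes with the smallest p are known for varied functions too. Ildr2, a membrane protein linked to hepatic lipid handling, rose from 505 to 1110 in KO lean to 2060 to 4170 in KO obese+RvE1 mice, without overlap (Log2FC = 2.01 ± 0.21, adjusted p = 0.000132). Cfd, which encodes the adipocyte and complement protease adipsin (chromosome 10, 79890853 to 79892655), went from a median of 13.1 (8.65 to 75) to 373 (102 to 1120), again without overlap (Log2FC = 3.96 ± 0.54, adjusted p = 0.00196). Themis, known from T cell development, had Log2FC = 4.12 ± 0.61, and its medians were 16.3 in KO lean and 295 in KO obese+RvE1 liver. The remaining genes of this group were Sema5b, a semaphorin (2.26 ± 0.32), Eda2r, a receptor of the TNF receptor family (1.63 ± 0.25), Pmm1, a phosphomannomutase (1.28 ± 0.20), Rab23, a small GTPase (0.84 ± 0.13) and Stxbp6, a SNARE-binding protein (0.67 ± 0.10). Pparg, the nuclear receptor that drives fat storage, rose from 29.8 to 98.5 to 119 to 444 (Log2FC = 1.89 ± 0.31, adjusted p = 0.00607), and Abcc3, an exporter of conjugated bile acids and drugs, from a median of 992 to 4420 (1.92 ± 0.32). Stxbp6 lost its call under at least 1 alternative, and those of the other named genes held under each alternative and on leaving out each mouse.

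**Figure D2:**
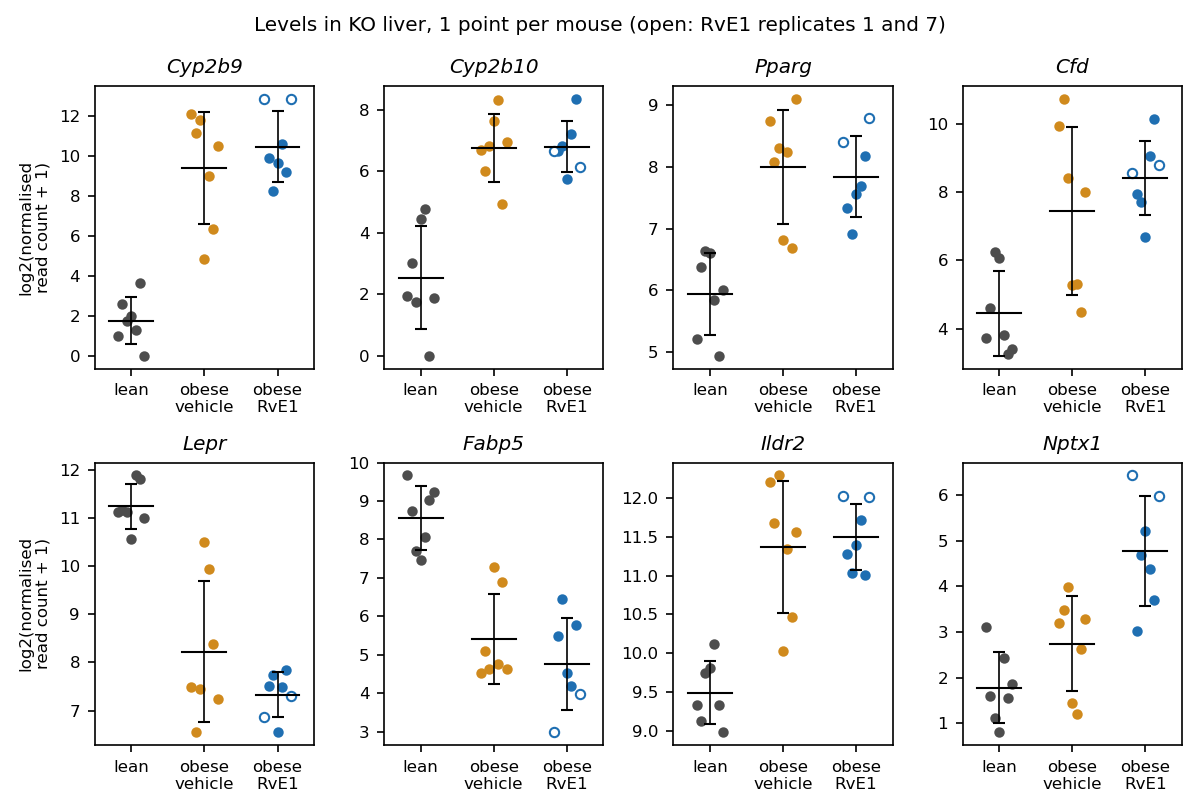
Log2(normalized read count + 1) of 8 genes in KO lean, vehicle-treated KO obese and KO obese+RvE1 liver, with 1 point per mouse (n = 7 per group), the mean as a line, 1 SD as the bar and KO obese+RvE1 replicates 1 and 7 as open points. All RvE1-treated mice lie on one side of all lean mice for Cyp2b9, Cyp2b10, Pparg, Cfd, Lepr, Fabp5 and Ildr2, and for Nptx1 the vehicle-treated (1.3 to 14.7) and RvE1-treated mice (7.14 to 85.2) overlap.

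**Figure D3:**
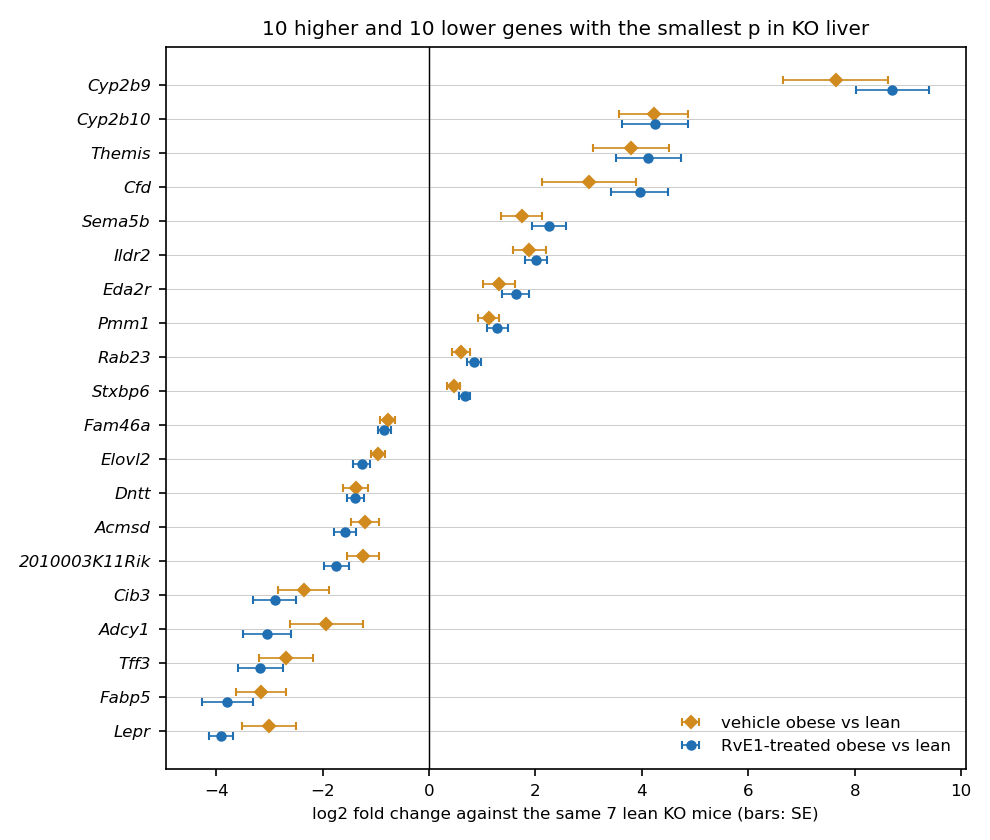
Log2FC against the 7 KO lean mice for the 10 upregulated and 10 downregulated genes with the smallest p in KO obese+RvE1 liver, with KO obese+RvE1 as circles, vehicle-treated KO obese as diamonds and bars of 1 SE. The values run from Cyp2b9 (8.71 with RvE1, 7.64 with vehicle) to Lepr (-3.91 and -3.01). Both groups share the lean mice, and the genes were chosen on the RvE1 values.

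Synthesis of unsaturated fatty acids was the pathway in which the largest share of members fell. Of 18 genes tested 8 were downregulated and 0 upregulated, and the median of the list was -0.89. They were Scd1, the desaturase that makes oleate, the polyunsaturated fatty acid desaturases Fads1 and Fads2, their relative Fads3, and the elongases Elovl2, Elovl3, Elovl5 and Elovl6. Scd1 was among the most abundant transcripts of the liver and went from 335000 to 1090000 in KO lean to 6520 to 243000 in KO obese+RvE1 mice, without overlap (Log2FC = -2.84 ± 0.65, adjusted p = 0.0285). Replicate 2 held the value of 6520 and the other 6 treated mice had 55100 to 243000. Elovl6, which lengthens palmitate to stearate, had a median of 6200 in KO lean and 1510 in KO obese+RvE1 liver (Log2FC = -1.76 ± 0.34, adjusted p = 0.0131), with 1 treated mouse (3910) inside the lean range. Fads2 fell from a median of 9720 to 3980 (-1.13 ± 0.22, adjusted p = 0.0154), Fads3 from 659 to 264 (-1.27 ± 0.26) and Elovl3 from 6660 to 1650 (-1.81 ± 0.40). Fads1 (-0.89 ± 0.25, adjusted p = 0.0676) and Elovl5 (-0.90 ± 0.26, adjusted p = 0.0692) were close to the threshold. Without replicates 1 and 7 the list had 7 downregulated members and a median of -1.02, with the calls of Elovl3 (adjusted p = 0.105) and Fads1 (adjusted p = 0.122) lost, in vehicle-treated KO obese liver 7 members and -0.52, and in RvE1-treated WT liver 8 of 16 and -0.67. On leaving out each mouse in turn, 6 to 10 members were downregulated. The calls of Fads1 and Elovl5 were lost without any 1 of 7 and 8 of the 14 mice, and that of Scd1 without KO lean replicates 6 and 7 together (adjusted p = 0.101).

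**Figure D4:**
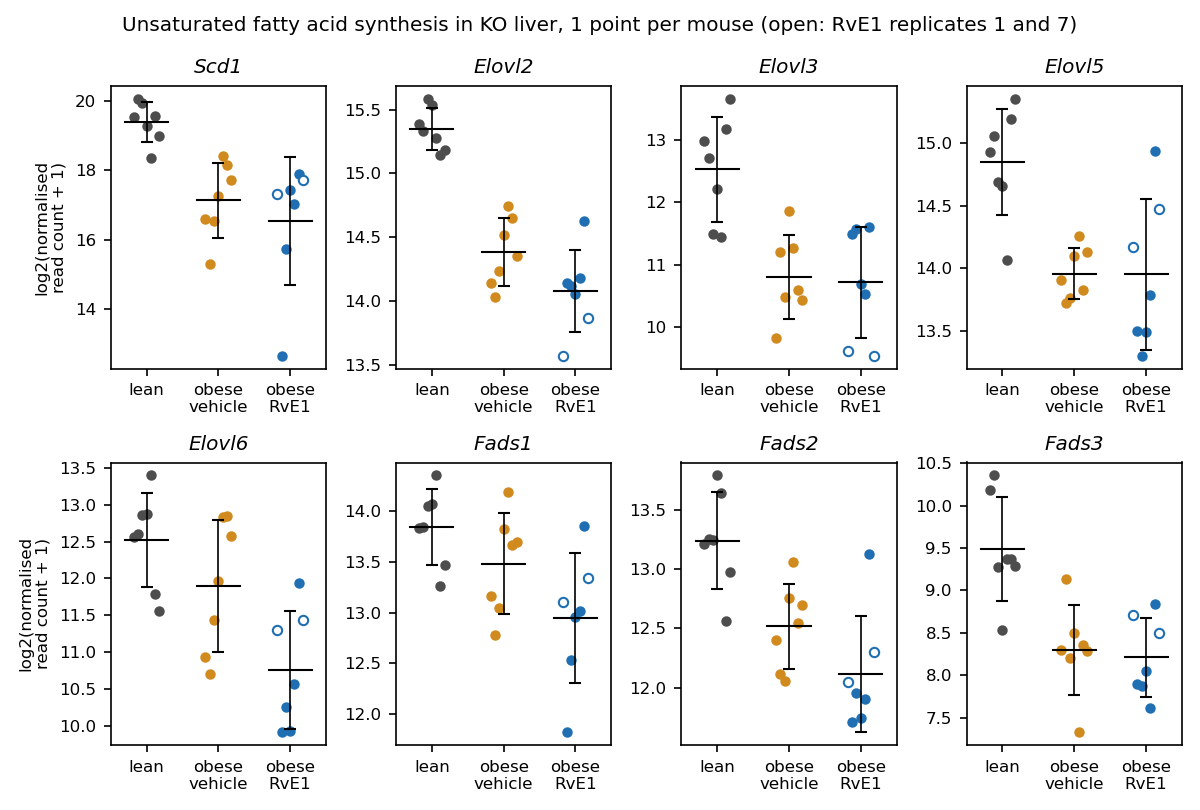
Log2(normalized read count + 1) of the 8 downregulated genes of unsaturated fatty acid synthesis in KO lean, vehicle-treated KO obese and KO obese+RvE1 liver, 1 point per mouse (n = 7 per group), with mean, SD bar and KO obese+RvE1 replicates 1 and 7 open. Scd1 and Elovl2 do not overlap between KO lean and KO obese+RvE1 mice, and the lowest Scd1 value belongs to KO obese+RvE1 replicate 2.

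Other lipid pathways held fewer changed genes. In de novo lipogenesis 1 of 18 members fell, Pnpla3, a lipase and acyltransferase of lipid droplets (Log2FC = -1.21 ± 0.27), and the median was -0.26. In cholesterol synthesis and uptake 2 of 22 fell, the sterol demethylase Cyp51 (-1.23) and the phosphomevalonate kinase Pmvk (-0.92). Among 28 genes of fatty acid oxidation and ketogenesis 5 fell, namely Ehhadh (-1.47), Acot3 (-1.21), Acot1 (-1.10), Mlycd (-0.87) and Hadhb (-0.70), and the thioesterase Acot11 rose (1.03 ± 0.24, adjusted p = 0.0297), with 1 member falling on leaving out replicate 1. Acot1 and Acot3 share 18.7% and 19.5% of their 50-base windows with other genes. The members of lipid droplet and lipolysis moved in both directions. Cd36, a fatty acid importer, rose from a median of 854 to 2930 (1.49 ± 0.34, adjusted p = 0.031), while G0s2, an inhibitor of adipose triglyceride lipase, fell from 19000 to 31900 to 4200 to 17400 without overlap (-1.64 ± 0.28, adjusted p = 0.00612), as did the droplet protein Plin5 (-1.41 ± 0.31), Fabp1 (-1.17 ± 0.33) and Fabp5. G0s2 had the smallest adjusted p of all genes in vehicle-treated KO obese liver (-1.76, adjusted p = 0.000311). Cidea, a lipid droplet fusion protein, was at 0 to 17.1 in KO lean and 0 to 141 in KO obese+RvE1 liver and did not pass (adjusted p = 0.207). Of bile acid genes, 1 of 23 rose, Abcc3. In these lists the calls of Pmvk, Ehhadh, Acot1, Hadhb and Fabp1 were lost without any 1 of 5 to 10 mice, and that of Mlycd without replicate 1. Without replicates 1 and 7 together these 6 calls and those of Cyp51 (adjusted p = 0.176), Acot11 (adjusted p = 0.133) and Cd36 (adjusted p = 0.12) were lost, so that no member of the cholesterol list passed and no upregulated member of the other lists named here but Abcc3.

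Of all genes tested, 2.30% were upregulated with RvE1 and 4.94% with vehicle. No member of the 26 genes of glucose and glycogen metabolism passed the test with RvE1, whereas 7 did with vehicle, all upregulated. These were Pklr, Pfkfb3, Slc2a2, Ppp1r3b, Ppp1r3c, Dak and Ugp2, and with RvE1 their Log2FC values were 0.52, -0.23, 0.56, 0.52, 1.13, 0.40 and 0.32. The medians of the list were 0.07 with RvE1 and 0.37 with vehicle, and the direct test between both obese groups, given below, called none of these genes. Slc2a2, the main glucose transporter of hepatocytes, had medians of 4490 in KO lean, 8390 in KO obese and 6810 in KO obese+RvE1 liver. Of 19 insulin signalling genes Igfbp2, a binding protein of insulin-like growth factors, fell (Log2FC = -1.83 ± 0.54, adjusted p = 0.0767). In the circadian list Per3, a repressor of the clock, rose (0.98 ± 0.31, adjusted p = 0.0952) among 19 tested, where 5 rose with vehicle, and the medians were 0.41 and 0.46. The calls of Per3 and Igfbp2 were each lost without any 1 of 9 mice and without replicates 1 and 7 together (adjusted p = 0.321 and 0.124). An E-box, CACGTG, the palindromic site bound by the clock factors CLOCK and BMAL1, was present in the 300-base promoter window of 5 of the 17 circadian genes found in RefSeq (29.4%), against 11.3% of the 10362 tested genes with a promoter in the table and 8.1% of all 27025 genes in it. The genes were listed because they belong to the clock, and only Per3 among them was called. Their E-box share therefore describes the list and is no result about these livers. The same count for all up- or downregulated genes is not given because only 229 of 324 and 237 of 315 had a promoter in the table. The share over tested genes has the same limit, since 10362 of 14110 had one.

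Genes of the growth hormone and STAT5 axis had the most negative median of all pathway lists, and that median rested on replicates 1 and 7. Of 22 members 4 fell and the median was -1.22. They were Socs2 and Cish, feedback inhibitors induced by growth hormone, the major urinary protein Mup20 and Elovl3. Socs2 went from a median of 1410 (306 to 2960) to 208 (96.5 to 977), with overlap (Log2FC = -2.28 ± 0.51, adjusted p = 0.0278). The summed level of the list was 84000 and 86300 in replicates 1 and 7, where the other treated mice reached 938000 and KO lean mice had 596000 to 1350000. Without those 2 mice 0 of 22 passed and the median was -0.42. It was -0.61 with vehicle, where 2 members rose and 3 fell, and in RvE1-treated WT liver 8 of 21 fell, with a median of -0.66. On leaving out each mouse in turn the count ran from 2, without KO obese+RvE1 replicate 5, to 7, and the call of Cish was lost without replicate 5 and that of Mup20 without any 1 of 6 mice. Of the longest Mup20 transcript, 50.5% of windows occur in other major urinary protein genes, so its level is uncertain.

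In each inflammatory list most members did not pass. For comparison, 2.30% of all genes tested were upregulated and 2.23% downregulated with RvE1, and 4.94% and 5.36% with vehicle. Of 24 acute phase genes 4 rose, Orm3, Lcn2, Saa3 and Saa4. Orm3, an orosomucoid that binds lipophilic molecules in plasma, went from 3.79 to 46.9 in KO lean to 52 to 486 in KO obese+RvE1 liver, without overlap (Log2FC = 3.44 ± 0.62, adjusted p = 0.00931), and was at 202 to 520 with vehicle. Lcn2, which withholds iron from bacteria, rose from a median of 227 to 886 (1.88 ± 0.46), Saa3 from 35.2 to 84.5 (1.36 ± 0.29) and Saa4 from 9130 to 22200 (1.18 ± 0.35). With vehicle 8 acute phase genes rose and 2 fell. Without replicates 1 and 7, 2 of the 4 kept their call, Orm3 and Saa3. Of 32 interferon-stimulated genes 5 rose and 1 fell. Ifit3 (1.11 ± 0.19, adjusted p = 0.0067) and I830012O16Rik (1.20 ± 0.21, adjusted p = 0.00739), members of the IFIT family of antiviral RNA-binding proteins, had no overlap between the groups, with Ifit3 at 188 to 414 in KO lean and 456 to 852 in KO obese+RvE1 mice. They share 51.2% and 45.0% of their windows with other genes, so part of their signal may be common to both. Oasl1 (0.76), Xaf1 (0.64) and Rsad2 (0.59) rose by less and Ifi27l2a fell (-0.99), and on leaving out KO obese+RvE1 replicates 1 or 5 or KO lean replicates 3 or 6, 2 members rose. Complement and coagulation had Cfd up and C8b (-1.45), C1qa (-0.75) and Cfp (-0.67) down of 38. Of 21 chemokines and cytokines Cxcl10, which attracts T cells, rose (0.78), and of 21 eicosanoid and resolvin genes Alox12 (-1.05) and the formyl peptide receptor Fpr2 (-0.85, with 37.2% of windows shared with other genes) fell. The medians of the complement and the chemokine list, both -0.19, were 0.03 and 0.02 under equal read totals. In these lists the calls of Saa4, Oasl1, Xaf1, Rsad2, Ifi27l2a, C8b, C1qa, Cfp, Cxcl10, Alox12 and Fpr2 were each lost without any 1 of 4 to 10 mice, and these and the call of Lcn2 (adjusted p = 0.171) were lost without replicates 1 and 7 together (adjusted p = 0.139 to 0.319).

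Of the cell type markers, those of macrophages had the most downregulated members by number, while some shorter lists had lower medians, neutrophil markers (-0.67) among them. Of 20 Kupffer cell and macrophage genes 4 fell, Timd4, C1qa, Lyz2 and Vsig4, and the median was -0.54. Timd4, a receptor for phosphatidylserine on resident Kupffer cells, went from 129 to 223 in KO lean to 54.3 to 116 in KO obese+RvE1 mice, without overlap (Log2FC = -0.98 ± 0.19, adjusted p = 0.0152). The summed level of the list was 21100 to 35700 in KO lean, 12500 to 22900 in KO obese+RvE1 and 14900 to 19200 in vehicle-treated KO obese liver, where 11 members fell (median -0.73). In RvE1-treated WT liver 0 of 19 passed, with a median of 0.30. Without replicates 1 and 7, 1 member passed (median -0.47), and 1 to 7 fell on leaving out each mouse, with Timd4 called each time and C1qa, Lyz2 and Vsig4 lost without any 1 of 6 or 7 mice. In bulk liver, fewer cells of a type and less RNA per cell cannot be told apart. Of 12 lymphocyte markers 0 fell with RvE1 and 7 with vehicle (medians -0.32 and -0.94), with summed levels of 232 to 356 in KO lean and 132 to 378 in KO obese+RvE1 mice. Over all genes tested, 2.23% were downregulated with RvE1 and 5.36% with vehicle. The direct test between both obese groups, given below, called none of these markers. None of the monocyte (14), neutrophil (8), endothelial (16), cholangiocyte (6) or hepatocyte (9) markers passed, and Lum, a matrix proteoglycan (-0.85), was the 1 of 21 stellate cell genes that did. Among adipocyte genes Cfd, Pparg and the carbonic anhydrase Car3 (1.72 ± 0.52) rose of 8 tested, with summed levels of 6130 to 45800 in KO lean and 22000 to 74400 in KO obese+RvE1 liver. The defining adipocyte genes Adipoq, Lep, Plin1 and Retn were not among the joined genes, and the part of adherent fat in these values was not tested. Among erythroid genes Beta-s (-2.45 ± 0.67), a beta globin with 65.8% of windows shared with Hbb-bt, fell, and the list had summed levels of 6930 to 44800 in KO lean and 1520 to 10900 in KO obese+RvE1 liver, and the part of blood left in the tissue was not tested. The call of Beta-s was lost without replicate 1 or 7, and that of Car3 without any 1 of 7 mice, and without both replicates together Beta-s (adjusted p = 0.221), Car3 (0.285) and Lum (0.165) did not pass.

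Among detoxification genes that NRF2 activates, Nqo1, a quinone reductase, rose (Log2FC = 1.10 ± 0.23), as did Ephx1, an epoxide hydrolase (0.92 ± 0.19), and Gclc, the rate-limiting enzyme of glutathione synthesis (0.83 ± 0.21), while Gstp1, a glutathione transferase with 62.3% of windows shared, fell (-0.89 ± 0.22), of 22 tested. Ephx1 was at 1750 to 2800 in KO lean and 3250 to 6840 in KO obese+RvE1 mice, without overlap. Among ABC transporters Abcc3, Abcb9 (0.74) and Abca5 (0.59) rose and Abcb1b fell (-0.84). Among genes of lysosomal glycan degradation Fuca2 rose (0.60) and Hyal2 fell (-0.63). Of 33 genes of amino acid catabolism and the urea cycle Got1 (-1.48), Agxt (-1.06), Sdsl (-0.95) and Slc25a15 (-0.78) fell and Prodh rose (0.69), and of 34 genes of lysine methylation and degradation Aass, the first enzyme of lysine breakdown, fell (-0.93). Beside these counts, 2.30% of all genes tested were upregulated and 2.23% downregulated. A single member in a list such as that of lysine is close to this share. In the integrated stress response Asns, asparagine synthetase (-1.48 ± 0.34), and Fgf21, a hormone of the starved liver (-1.12 ± 0.31), fell of 16 tested, and of 20 immediate early genes Egr2 rose (2.25). Respiratory complex I (36 genes), the spliceosome (45), the proteasome (34), folding in the endoplasmic reticulum (22) and the cell cycle (24) had no up- or downregulated member. In complex I and the spliceosome 1 member each had an adjusted p below 0.1 and missed the fold threshold. Of 53 cytosolic ribosomal protein genes Rps24 (-0.98), Rps20 (-0.78) and Rpl7 (-0.71) fell, with a median of -0.40, and 0 to 13 fell on leaving out each mouse (0 without KO obese+RvE1 replicate 1 or 7 or KO lean replicate 6). The summed ribosomal level was 24000 and 26200 in replicates 1 and 7 against 51100 to 63300 in KO lean mice, and the median without them was -0.13. The calls of these ribosomal genes, of Slc25a15, Prodh, Agxt, Fgf21, Fuca2, Hyal2, Abcb9, Abca5 and Abcb1b were each lost without any 1 of 3 to 10 mice, replicate 1 among them in each case. Without replicates 1 and 7 together, Abcc3, Nqo1 and Ephx1 kept their calls, while Gclc (adjusted p = 0.143), Gstp1 (0.191), Got1 (0.128), Sdsl (0.139), Aass (0.159), Asns (0.12), Egr2 (0.146) and the genes just listed lost theirs.

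**Figure D5:**
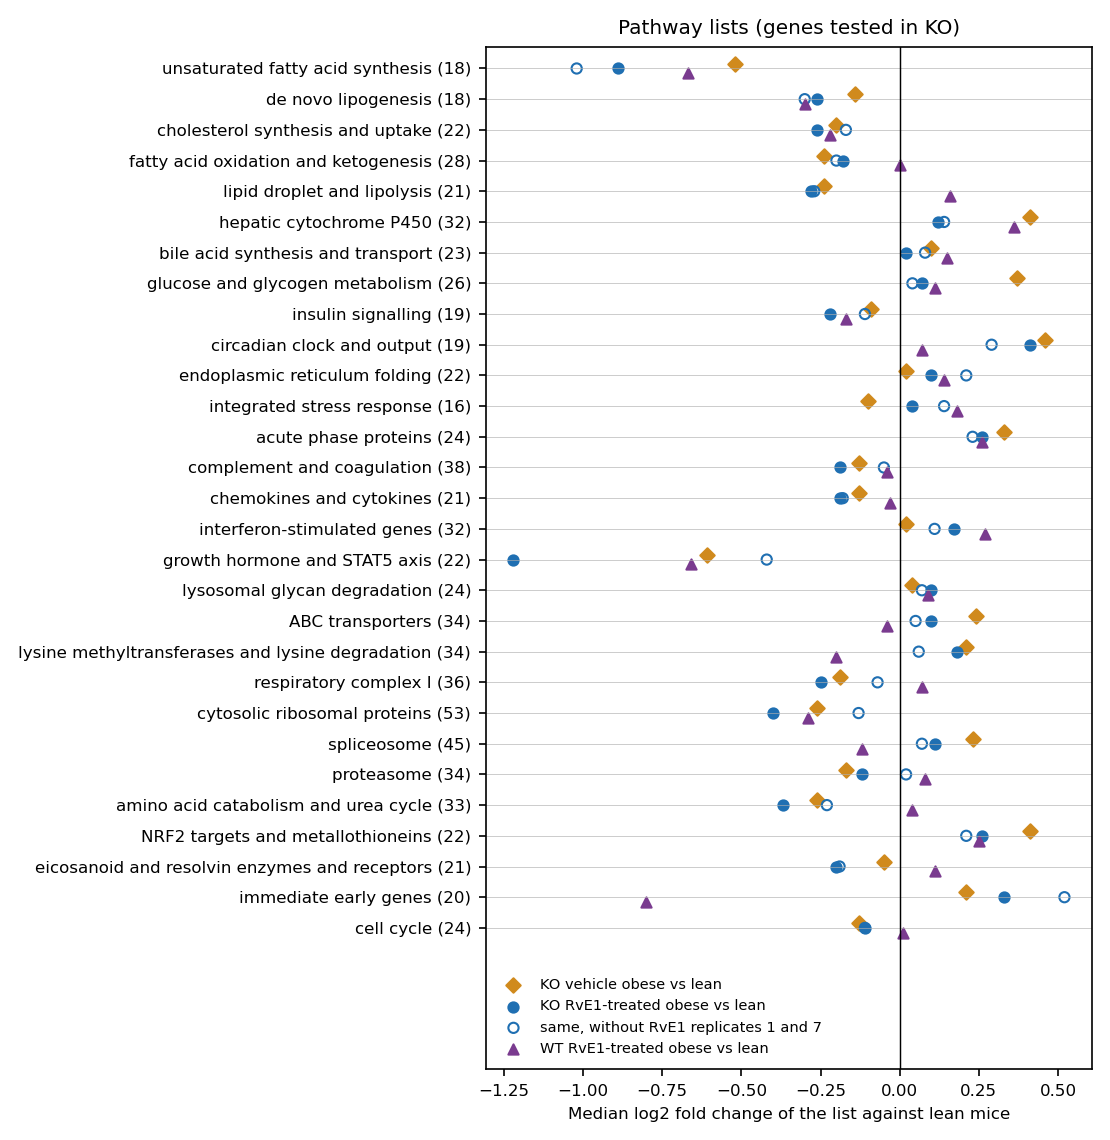
Median Log2FC against lean mice of each pathway list (number of genes tested in parentheses) in KO obese+RvE1 liver (filled circles), the same without replicates 1 and 7 (open circles), vehicle-treated KO obese liver (diamonds) and RvE1-treated WT obese liver (triangles). Unsaturated fatty acid synthesis is negative in all 4, from -1.02 to -0.52, and the growth hormone and STAT5 list moves from -1.22 to -0.42 when replicates 1 and 7 are left out.

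The question of which diet effects were still present after RvE1 was addressed by setting these calls beside those of vehicle-treated KO obese against the same 7 KO lean mice. Vehicle-treated obese liver had 1458 up- or downregulated genes of 14151 tested (10.3%, with 4.94% upregulated and 5.36% downregulated), or 740 with the identifier number in the labels as a block. Of these, 368 were also called with RvE1, 171 upregulated and 197 downregulated, which is 25.2% of the vehicle calls and 57.6% of the RvE1 calls, and 216 were shared with that block. Both comparisons share the lean mice, so agreement between them is in part given by the design. Another 1090 genes were called with vehicle only, of which 1077 were tested with RvE1, and 271 were called with RvE1 only. Of these 271, 69 had an adjusted p below 0.1 with vehicle and missed the fold threshold, and 28 of the vehicle-only genes did so with RvE1. Without KO obese+RvE1 replicates 1 and 7, 156 genes were shared, and leaving out single mice gave 206 without KO obese+RvE1 replicate 1, 222 without replicate 7, 224 without replicate 5, 209 without KO lean replicate 6 and 569 without KO obese+RvE1 replicate 2. The RvE1-treated group was also the more variable, with a median SD within the group of 0.371 on the log2 scale against 0.285 with vehicle and 0.329 in KO lean mice, and 0.301 without replicates 1 and 7.

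Values side by side showed how far the called sets differed in size of effect, for genes tested in all 3 comparisons and with the sign turned along the vehicle or RvE1 call. The 366 genes called in both had a median change of 0.95 with vehicle and 1.03 with RvE1 (0.85 without replicates 1 and 7). The 1070 genes called with vehicle only had 0.75 with vehicle and 0.50 with RvE1 (0.31 without those mice), and the 266 called with RvE1 only had 0.45 and 0.78 (0.66). These sets were chosen by the values shown, which makes the chosen side the larger, so the medians are a description. A set chosen without any knockout mouse gives the fairer view. For the 508 genes called in vehicle-treated WT obese against WT lean liver, the median change along the WT direction was 0.62 in vehicle-treated and 0.60 in RvE1-treated KO obese liver (0.59 without replicates 1 and 7), and the median of their direct difference was 0.02. In RvE1-treated KO liver 483 of the 508 had the sign seen in WT mice. The genes with the smallest p among those called with vehicle only were Acsm3, Capn10, Dock9, Klhdc3, Maf1 and Mogs. Capn10, a calpain protease, had Log2FC = -1.07 with vehicle and -0.50 with RvE1, Maf1, a repressor of RNA polymerase III, -0.70 and -0.46, and Klhdc3 -0.64 and -0.30, and Acsm3, a medium-chain acyl-CoA synthetase, 0.71 and 0.58. With RvE1 only, Acsl4, which activates arachidonic acid, had -1.21 ± 0.21 against -0.50 with vehicle, Adora1, an adenosine receptor, 1.32 ± 0.21 against 0.80, Intu, a planar polarity effector, 0.74 ± 0.12 against 0.38, and Kynu, an enzyme of tryptophan breakdown, -0.59 ± 0.10 against -0.28. Kynu lay at the fold threshold and lost its call without any 1 of 7 mice.

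Tested directly, RvE1-treated and vehicle-treated obese knockout livers differed in 0 of 14181 genes (0.00%) by limma. The count at an unadjusted p under 0.05 was 1181, the smallest adjusted p was 0.345 (Zfp445, Log2FC = -0.88), edgeR gave 0 and DESeq2 14. At the median gene the 95% interval of the difference reached 0.384 on the log2 scale to either side of its estimate, before adjustment over all genes. This count depended on the vehicle mice, since without KO obese replicates 1 to 3, which share an identifier number in their labels, 299 genes were called. Nptx1, a secreted neuronal pentraxin, was at 0.744 to 7.58 in KO lean, 1.3 to 14.7 in KO obese and 7.14 to 85.2 in KO obese+RvE1 liver, with Log2FC = 3.00 ± 0.50 (adjusted p = 0.00607) against lean mice and an interval of 0.87 to 3.20 against vehicle (adjusted p = 0.557). Replicates 1 and 7 had the 2 highest values of Nptx1, and without them its Log2FC against lean mice was 2.40. Cish had Log2FC = -1.59 against lean mice with RvE1 and 0.59 with vehicle (interval of the difference -3.51 to -0.85, adjusted p = 0.557). Kiss1, the kisspeptin gene, fell with RvE1 (-1.51, adjusted p = 0.05) and with vehicle (-1.81), but 100% of its windows are shared with the overlapping gene Gm28040, and its call with RvE1 was lost without replicate 1 or 7 or KO lean replicate 6. Without replicates 1 and 7 together Cish and Kiss1 did not pass against lean mice (adjusted p = 0.143 and 0.207). Foxq1 (-0.43), Cxcl1 (0.28), Pde6c (0.73) and Bbc3 (-0.30) did not pass against lean mice. The study names these genes as changed by RvE1 against vehicle in obese knockout mice. It used DESeq2, so both the comparison and the test differ from those of the values just given. Bbc3 was downregulated with vehicle against lean mice (-0.97, adjusted p = 0.00347). Its interval of RvE1 minus vehicle was 0.32 to 1.03, and the difference did not pass (adjusted p = 0.557).

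The same comparison in wildtype mice, RvE1-treated obese against lean, called 844 of 13058 genes (6.46%, with 3.78% upregulated and 2.68% downregulated), and 263 with the identifier number as a block, where the knockout comparison had 487. Over the 13050 genes tested in both genotypes, 604 were called in knockout and 841 in wildtype liver, and 251 in both, which is 41.6% of the knockout and 29.8% of the wildtype calls. No mouse entered both comparisons, and all 251 had the same direction. Lepr had Log2FC = -3.91 in knockout and -4.29 in wildtype, Fabp5 -3.79 and -4.79, Cfd 3.96 and 5.44, Pparg 1.89 and 1.91, Ildr2 2.01 and 2.16 and Scd1 -2.84 and -2.18. The difference between the genotypes passed an adjusted p of 0.1 for 0 of 13050 genes (0.00%) by limma, with 1507 at an unadjusted p under 0.05, 0 by edgeR and 60 by DESeq2. Leaving out KO lean replicate 5 gave 16 genes, leaving out WT obese+RvE1 replicate 3 gave 2 and leaving out WT lean replicate 1 gave 1. The smallest adjusted p was that of Clec4n, which encodes the macrophage lectin Dectin-2, at 0.213. Clec4n fell in knockout liver, from 65.4 to 188 to 30.3 to 64.3 without overlap (Log2FC = -1.19, adjusted p = 0.0147), and had 0.72 in wildtype liver (adjusted p = 0.104), a difference of -1.90 ± 0.37. Akap5 (1.36 ± 0.30), Ms4a6c (-1.21 ± 0.27) and Csnk1e (0.70 ± 0.16) followed, each at an adjusted p of 0.27. For G0s2 (-1.64 in knockout, -0.54 in wildtype), Plin5 (-1.41 and -0.13) and Timd4 (-0.98 and -0.01) the differences of -1.09 ± 0.38, -1.27 ± 0.41 and -0.97 ± 0.31 did not pass either (adjusted p = 0.355, 0.345 and 0.345).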

How the data were processed

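Liver RNA of 42 male mice (6 groups of 7, paired-end reads from a stranded TruSeq library) was sequenced. Per the submitters' processing notes and the study's methods, reads were checked with FastQC, aligned to mm10 with Bowtie2, counted per gene with featureCounts (Subread, both ends of a pair required) and normalized with DESeq2, with versions not given in the sources used here. The deposited values are a normalized signal per gene, reads divided by a DESeq2 size factor that the authors computed separately in each table. Dividing by the worth of 1 read gave whole reads (within 0.1 reads) for 100% of values, and 0 of 192437 values of libraries held in several tables differed between them. Tables were joined on 14433 genes, the libraries of a comparison were scaled together by median-of-ratios size factors, genes whose mean over those libraries reached 5 were kept, and log2(normalized count + 1) was tested with limma 3.58.1 (R 4.3.3, trended empirical Bayes, Benjamini-Hochberg adjustment over all tested genes). Calls needed an adjusted p below 0.1 with a fold above 1.5, and 1.5 as a Log2FC, the study's wording, was an alternative. The difference between genotypes needed the adjusted p alone. limma was planned as the main test because the deposited values are normalized, and it was kept after whole reads were recovered. edgeR 4.0.16 and DESeq2 1.42.0 on the recovered reads were alternatives. Scripts were tested on simulated data.

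The labels give each mouse its own identifier, so the libraries of a group are separate mice, and no 2 libraries of the same group agreed within sampling noise. Libraries of different groups were not compared in this way. The mice, gene lists and named genes were chosen with earlier results of these data known. Named genes were Cmklr1, the 10 higher and 10 lower with the smallest p, the 3 of each with the largest change, up to 4 per list by p, genes that the study names, and those with the smallest p between treatments and between genotypes. Cyp2b13, the other called members of each list, the genes called with vehicle only or RvE1 only and the genes given for replicates 1 and 7 were added after their values were seen. A few genes that these rules name are not reported here. Coordinates are from GENCODE M21 (GRCm38), which matched 99.1% of genes. Shared 50-base windows were counted between the longest transcripts of 218 genes and all other genes.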

Additional observations from a re-analysis of the deposited data

Results flagged for a closer look

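Among the 111 called genes, the levels in each group of 7 mice were searched for a mouse whose gap to its nearest neighbour was a large part of the whole range of the group (Dixon's ratio, above its 95% critical value for 7 samples). Chance gives about 1 such group in 20, and 13 of 222 were found. In KO obese+RvE1 replicate 6, which also stood lowest on the second principal component of its group (-53.05), Asns was at 22.6 (3.79 to 7.91 in the other 6 mice), Cyp51 at 4320 (821 to 1490), Fads2 at 8960 (3350 to 5050), Got1 at 10200 (1910 to 3520) and Pmvk at 682 (182 to 292). In other treated mice, Lcn2 was at 181 in replicate 3 (661 to 1670), Pmm1 at 140 in replicate 4 (79.1 to 98.5) and Scd1 at 6520 in replicate 2 (55100 to 243000). Among KO lean mice, Acsl4 was at 5310 in replicate 5 (3120 to 3910), Agxt at 15800 in replicate 6 (3770 to 6820), Beta-s at 40500 in replicate 4 (5190 to 11200), Fgf21 at 225 in replicate 3 (518 to 975) and Cyp2b13 at 0.88, 1 read, in replicate 7 (0 in the others).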

How the results depend on the processing

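The 639 genes called between KO obese+RvE1 and KO lean liver became 1198 with equal read totals, 1075 with library quality weights, 324 at an adjusted p under 0.05, 105 at an absolute Log2FC above 1.5, 1000 with DESeq2 and 220 without KO obese+RvE1 replicates 1 and 7 (chosen after seeing the data), 297 to 1049 on leaving out each mouse, and 213, 246 and 307 without the mice of identifier numbers 9 (KO lean replicates 6 and 7), 12 (KO obese+RvE1 replicates 1 to 3) and 15 (replicates 4 and 5), within a range of 213 to 780. Other alternatives stayed within 1.5 times, edgeR with 707. The vehicle calls became 3411 without the fold threshold, 129 above 1.5 in Log2FC, 1071 to 1997 without each mouse and 629 to 2002 (903 without number 9) without each identifier number. The calls shared by both became 606, 708, 599 without the fold threshold, 191 and 60 under the stricter thresholds, 593 with DESeq2, 156 without replicates 1 and 7, 206 to 569 without each mouse and 116 to 603 without each number (239, 181 and 209 without numbers 10, 12 and 15). The 0 calls between RvE1 and vehicle became 1 with quality weights, 14 with DESeq2, 0 to 1 without each mouse and 299 without number 10. The 844 wildtype calls became 1319 with quality weights, 2202 without the fold threshold, 138 above 1.5 in Log2FC, 724 to 996 without each mouse and 688 to 1253 without each number. The 0 calls between genotypes became 7 with length and GC correction, 89 with quality weights, 60 with DESeq2, 0 to 16 without each mouse and 0 to 1 without each number. Blocking on the identifier number (random effect) gave 487, 740 (vehicle), 263 (wildtype) and 216 (shared). Same-numbered mice of a group had a mean correlation of deviations of -0.024 over 10 pairs, against -0.203 over 32 other pairs. No paired analysis was possible because replicate numbers only name the mice within each group. Of 111 named calls 40 held under every alternative at the reported thresholds and 0 changed direction. Single calls were not rechecked at other thresholds. The causes were not tested.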
